A study of Mus musculus with 20 samples.

Results

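Amino acid starvation was examined here in mouse embryonic fibroblasts whose O-GlcNAc had been altered in either direction, by sequencing the footprints of 80S ribosomes bound to the initiation factor eIF3. The libraries were chosen by their titles. They comprised starved Ogt knockout cells, fed Ogt knockout cells, starved Thiamet-G cells and fed Thiamet-G cells, with 1 library each, and were 4 of the 20 libraries of the series. Transcripts were members if all 4 files listed them, which held for 3718 of the 7763 transcripts listed in any of the 4 and of the 15354 in the series. All cells were C57BL/6J fibroblasts kept in DMEM with 10% FBS. To induce the knockout, cells received 0.5 µM 4-OHT over 24 h and then 24 h of fresh medium, whereas Thiamet-G cells received 0.1 µM of the inhibitor over 16 h. Starved cells spent 2 h in DMEM containing "DFBS", which is not spelled out in the labels. No fed or starved control library was given 4-OHT, so loss of Ogt and 4-OHT itself cannot be told apart in any comparison with control cells, while both knockout libraries had received it. Footprint fragments of 20 to 70 nt were kept for this assay, and fragments of 25 to 35 nt for the 12 Ribo-seq libraries of all ribosomes. The other 4 eIF3-80S libraries came from starved and fed control cells, 2 of each. Each group below had 1 library, so a difference within a pair had no replicate check, and the labels do not say whether any libraries came from separate cultures.

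O-GlcNAc transferase, encoded by Ogt, places a single N-acetylglucosamine on serines and threonines of proteins inside the cell, and O-GlcNAcase removes it. Thiamet-G inhibits O-GlcNAcase, so the knockout and the inhibitor act on O-GlcNAc in opposite directions. The factor eIF3 assembles on the small ribosomal subunit during initiation and can stay on the ribosome into early elongation, where it is known to help ribosomes start again downstream of a short upstream reading frame. Amino acid shortage activates the kinase GCN2 and the integrated stress response, in which most initiation falls and messages such as that of ATF4 are translated through reinitiation. The series title places a changing O-GlcNAc modification on the subunit eIF3a and concerns reinitiation in this response. The files identified transcripts only by Ensembl identifier, and 0 of 15354 could be matched to a gene symbol, so Ogt, Atf4, fibroblast markers and gene lists of the stress response were not analysed here. Transcripts are described by identifier, coding length, level and reads.

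The values were RPKM, reads scaled to transcript length and library total, as deposited. Whole reads and coding lengths were recovered from the steps between RPKM values. Library totals were 229599 reads in starved knockout cells, 154618 in fed knockout cells, 136966 in starved Thiamet-G cells and 359282 in fed Thiamet-G cells. The starved library was thus the deeper of the knockout pair, by 1.48 times, and the shallower of the Thiamet-G pair, at 0.381 times the depth of its fed partner. The median member had 27, 16, 13 and 37 reads in the same order of libraries. A file listed a transcript from 5 reads on. Of 1425 transcripts listed in 3 of the 4 files, 904 were missing only from starved Thiamet-G cells, 429 only from fed knockout cells, 82 only from starved knockout cells and 10 only from fed Thiamet-G cells. Just inside the rule, 386 members had 5 reads in their lowest library. A poorly read transcript could be a member only if it reached 5 reads in the shallow starved Thiamet-G library as well. Below 10 reads on average, the 203 members had a median log2 ratio of 0.68 in the Thiamet-G pair and -0.13 in the knockout pair.

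Starved and fed libraries were compared within each background as the difference of log2(RPKM + 1), after rescaling each library by its median ratio to the geometric mean of the 4. In the knockout pair, 316 of 3718 members (8.5%) were at least 2-fold higher in starved cells and 356 (9.58%) at least 2-fold lower. In the Thiamet-G pair, 351 (9.44%) were at least 2-fold higher in starved cells and 285 (7.67%) at least 2-fold lower. The balance of these counts depended on scaling. Without rescaling, 459 were at least 2-fold higher and 262 lower in the knockout pair, and 269 higher and 406 lower in the Thiamet-G pair, so the more numerous direction turned over in both. Without rescaling, the median log2 ratio of all members was 0.15 in the knockout pair and -0.16 in the Thiamet-G pair, and all ratios given here are relative to these medians. Across members, starved and fed libraries differed with an SD of log2 ratio of 0.789 in the knockout pair and 0.791 in the Thiamet-G pair. The 2 fed libraries differed from each other with an SD of 0.653 and the 2 starved libraries with an SD of 0.767. Each starvation ratio was thus only a little more variable than the ratio between backgrounds in starved cells. It was more clearly so than the ratio between backgrounds in fed cells. The unequal depth of the libraries was not separated from these SDs.

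The pairs shared part of their ratios. At least 2-fold in both pairs, 73 members (1.96%) were higher in starved cells and 100 (2.69%) were lower, while 27 (0.726%) were at least 2-fold in opposite directions. The 73 made up 23.1% of those higher in the knockout pair and 20.8% of those higher in the Thiamet-G pair. The 100 made up 28.1% of those lower in the knockout pair and 35.1% of those lower in the Thiamet-G pair. The sign of the ratio was the same in both pairs for 2241 of 3718 members (60.3%), for 731 of 966 (75.7%) with a log2 ratio of at least 0.5 in size in both, and for 173 of 200 (86.5%) at 2-fold in both. The pairs had no library in common. Pearson's r between their ratios was 0.353 and Spearman's rho 0.325, over 3718 transcripts that share the same libraries and are not independent replicates.

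**Figure D1:**
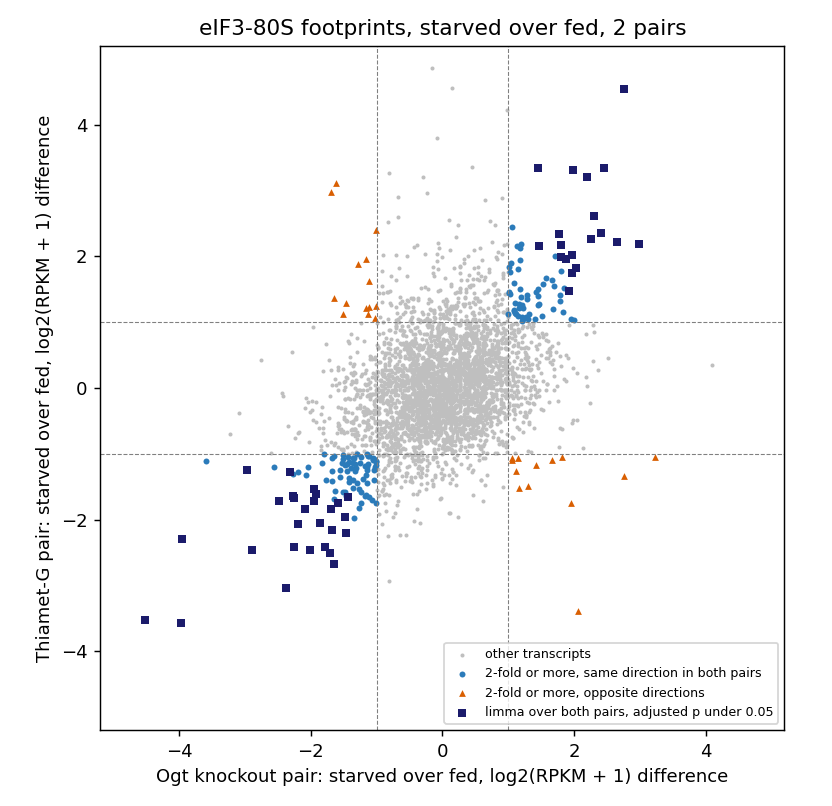
Each point is 1 of 3718 transcripts, with the starved-over-fed difference of log2(RPKM + 1) in the Ogt knockout pair on the horizontal axis and in the Thiamet-G pair on the vertical axis, and dashed lines at 2-fold. Of 200 transcripts past 2-fold in both pairs, 173 lie in the lower left and upper right corners (circles and squares) and 27 in the others (triangles), and the 46 squares are those called over both pairs.

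Agreement was closer where more reads were counted. Spearman's rho between the pairs was 0.272 for the 203 members under 10 reads on average, 0.245 for 1309 members at 10 to under 20, 0.329 for 1431 at 20 to under 50, 0.467 for 463 at 50 to under 100 and 0.651 for 312 at 100 reads or more. The share with the same sign was 45.3% in the lowest of these classes and 77.2% in the highest. This share also depends on the class medians, as rho does not. In the knockout and Thiamet-G pairs those medians were -0.13 and 0.68 in the lowest class, and -0.30 and -0.45 in the highest. Of the 73 members higher in both pairs, 56 had an exact 95% counting interval above a ratio of 1 in each pair, and of the 100 lower in both, 84 had one below 1 in each. These intervals cover counting error only. Over all 3718 members, the interval lay above 1 for 415 (11.2%) and below 1 for 487 (13.1%) in the knockout pair. In the Thiamet-G pair it lay above 1 for 392 (10.5%) and below 1 for 415 (11.2%). The 73 and the 100 were chosen past 2-fold on the same reads, so intervals clear of 1 follow in part from the choice.

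A test over both pairs took starvation and background as terms, so that the only spread it measured was the disagreement of the 2 starvation ratios. With limma and a Benjamini-Hochberg adjusted p under 0.05, 19 of 3718 transcripts (0.511%) rose in starved cells and 27 (0.726%) fell. The fit had 1 residual degree of freedom per transcript and borrowed a prior of 10.4 from all transcripts. The 19 rose by 3.24-fold to 12.6-fold with a median of 4.81-fold, and the 27 fell by 2.92-fold to 16.2-fold with a median of 3.89-fold. All 46 were past 2-fold the same way in both pairs. Limma-voom on the recovered reads called 74 higher (1.99%) and 102 lower (2.74%), among them all 46. The balance of the calls depended on scaling, with 41.3% of calls higher as given, 51.5% (51 of 99) without rescaling and 61.1% (11 of 18) after quantile normalization. When the 8 eIF3-80S libraries were fitted as 6 groups, so that the spread came from control replicates, limma called 0 of 1679 transcripts for the mean of the 2 ratios, and 221 had an unadjusted p under 0.05.

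Among transcripts that fell, ranked by the smaller of their 2 ratios, the first was ENSMUST00000059250, with 972 nt of coding sequence. It had 418 RPKM in starved knockout cells, against 6584 RPKM in fed knockout cells, and 139.7 RPKM in starved Thiamet-G cells, against 1663 RPKM in fed Thiamet-G cells. Both starved libraries lay below both fed libraries. It was 15.8-fold lower in starved knockout cells (95% counting interval 12.9 to 19.5) and 11.9-fold lower in starved Thiamet-G cells (7.37 to 20.6), and the fit over both pairs gave a log2 change of -3.77 ± 0.326 (SE, limma adjusted p = 0.000446). The next was ENSMUST00000039152, with 3735 nt. It had 14 and 5 reads in starved knockout and starved Thiamet-G cells, against 207 and 183 reads in the fed libraries of the same backgrounds. Its levels were 14.8 and 10.7 RPKM in the starved libraries, against 360.1 and 134 RPKM in the fed ones. Its log2 change was -4.02 ± 0.419 (SE, limma adjusted p = 0.00153). In control libraries of the same assay, it was unlisted in a starved library and had 21.62 RPKM in the other. The fed control libraries had 21.37 and 23.18 RPKM, so its listed control levels were nearly equal. The 8 leading transcripts of this direction were lower by 4.08-fold to 24.4-fold in the knockout pair and by 4.17-fold to 12.5-fold in the Thiamet-G pair.

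ENSMUST00000099490, with 8076 nt, led the opposite direction. It had 223 RPKM in starved knockout cells, against 32.2 RPKM in fed knockout cells, and 226 RPKM in starved Thiamet-G cells, against 8.78 RPKM in fed Thiamet-G cells. The starved levels of the 2 backgrounds were nearly equal while the fed levels differed. Control libraries of the same assay showed no rise for ENSMUST00000099490. It was unlisted in a starved control library and had 15.0 RPKM in the other, against 72.15 and 16.08 RPKM in fed control cells. Its ratio was 6.94-fold in the knockout pair (95% counting interval 5.02 to 9.85) and 25.8-fold in the Thiamet-G pair (17.2 to 40.4), intervals that do not overlap, and the fit gave a log2 change of 3.65 ± 0.469 (SE, limma adjusted p = 0.00456). ENSMUST00000182597, with 14649 nt, had 802 and 292 reads in starved knockout and starved Thiamet-G cells, against 87 and 79 reads in their fed libraries. Its level was 216 and 159 RPKM in the starved libraries, against 38.6 and 14.7 RPKM in the fed ones. Its log2 change was 2.90 ± 0.408 (SE, limma adjusted p = 0.0072). In control cells the same assay gave it 38.11 and 12.4 RPKM starved, against 21.79 and 22.66 RPKM fed. The starved control libraries thus lay on either side of the fed ones. The 8 leading transcripts of this direction were higher by 4.88-fold to 8.49-fold in the knockout pair and by 4.65-fold to 25.8-fold in the Thiamet-G pair, and had 1323 to 14649 nt.

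**Figure D2:**
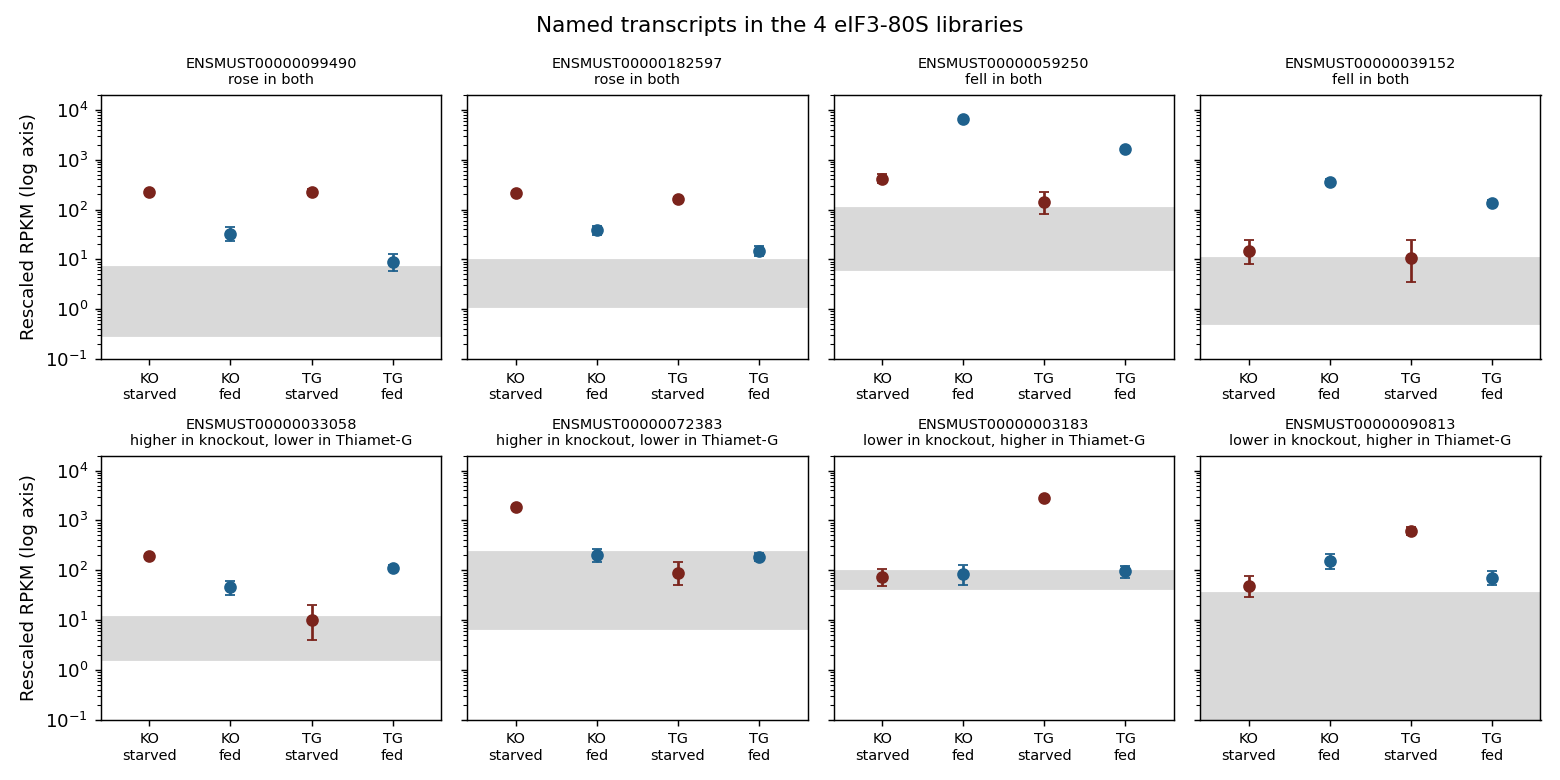
Rescaled RPKM (vertical log axis) of 8 transcripts in the starved and fed libraries of Ogt knockout (KO) and Thiamet-G (TG) cells, with exact 95% Poisson counting intervals as bars, and the range over the 12 Ribo-seq libraries in grey, which reaches the axis floor where a library did not list the transcript. In the top row both starved points lie on the same side of their fed points, with ENSMUST00000059250 at 418 and 139.7 RPKM in starved cells against 6584 and 1663 RPKM in fed cells, and in the bottom row the 2 ratios have opposite signs, that of ENSMUST00000003183 in the knockout pair being within counting error.

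Transcripts that were lower in both starved libraries tended to be highly read and short, and those that were higher tended to be long. The median coding length of the 100 lower in both was 829.5 nt and their median level 227 RPKM, against 1455 nt and 74.8 RPKM over all members. Short coding regions, up to 600 nt, were 32 of the 100 (32.0%), 3 of the 73 higher in both (4.1%) and 545 of all 3718 members (14.7%). Long ones, over 3000 nt, were 10 of the 100 (10.0%), 23 of the 73 (31.5%) and 683 of all members (18.4%). The 100 held 3.36% of reads on listed transcripts in starved knockout cells, against 12.28% in fed knockout cells, and 3.0% in starved Thiamet-G cells, against 10.16% in fed Thiamet-G cells. The 73 held 4.35% in starved knockout cells, against 1.35% in fed knockout cells, and 4.51% in starved Thiamet-G cells, against 1.18% in fed Thiamet-G cells. Both sets were chosen by their ratios in these same libraries, so the directions of these read shares follow from the choice.

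Over all members, median ratios followed coding length in both pairs. The median log2 ratio of the 545 coding regions of at most 600 nt was -0.25 in the knockout pair and -0.39 in the Thiamet-G pair, and 61.1% and 71.7% of them were below 0. From above 600 to 1500 nt the medians were -0.04 and -0.09 over 1363 transcripts, and from above 1500 to 3000 nt they were 0.06 and 0.11 over 1127. For the 683 coding regions over 3000 nt the median was 0.12 in the knockout pair and, in the Thiamet-G pair, 0.26, which became -0.01 after quantile normalization. After quantile normalization the shortest class kept its direction, with medians of -0.06 in the knockout pair and -0.12 in the Thiamet-G pair. The 775 members of at least 50 reads on average had medians of -0.08 and -0.245. Listing from 5 reads could still leave out strong changes at such read numbers. ENSMUST00000039152, in this subset, had 5 reads in starved Thiamet-G cells. In this subset the medians were -0.40 and -0.64 for 163 short coding regions, and 0.13 and 0.19 for 110 long ones. Rescaled on this subset alone, they were -0.31 and -0.385 for the short class, and 0.22 and 0.445 for the long one. Short transcripts were also the more highly read ones, and level was not separated from length over the whole range. The 930 members with the highest levels had medians of -0.16 and -0.35 as a whole. Among them the medians were -0.29 and -0.47 for 413 coding regions of at most 600 nt, -0.11 and -0.31 for 399 of over 600 to 1500 nt, and 0.02 and 0.09 for 103 of over 1500 to 3000 nt. At lower levels the Thiamet-G pair did not keep this order. Among the 930 members with the lowest levels its medians were 0.53 for 35 coding regions of over 600 to 1500 nt, 0.21 for 401 of over 1500 to 3000 nt and 0.29 for 494 of over 3000 nt, whereas those of the knockout pair were -0.13, -0.02 and 0.11. As a whole, these 930 had medians of 0.05 in the knockout pair and 0.26 in the Thiamet-G pair.

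**Figure D3:**
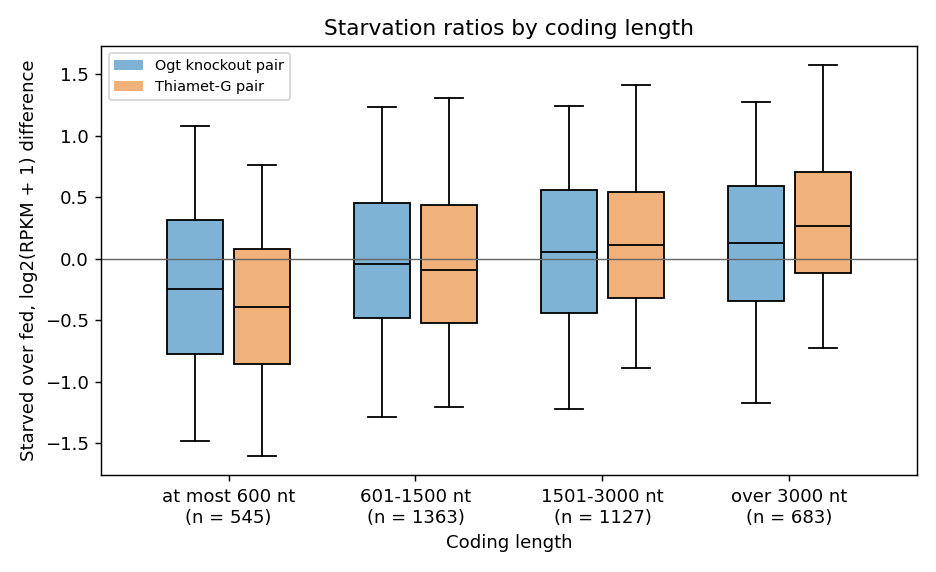
Starved-over-fed difference of log2(RPKM + 1) by coding length in the Ogt knockout and Thiamet-G pairs, as boxes of the quartiles with the median as a line and whiskers at the 5th and 95th percentiles over transcripts, 1 library per group. Medians climb with length in both pairs, from -0.25 and -0.39 in the shortest class to 0.12 and 0.26 in the longest, where the Thiamet-G median became -0.01 after quantile normalization.

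Shares of reads showed the same order for short coding regions. Recovered reads were 67.4% of the library total in starved control replicate 1, 86.3% in starved Thiamet-G and 96.7% in fed Thiamet-G cells. The shares thus leave out different parts of each library. Transcripts of at most 600 nt held 16.7% of recovered reads in starved knockout cells, against 19.2% in fed knockout cells, and 12.2% in starved Thiamet-G cells, against 20.2% in fed Thiamet-G cells. The 4 control libraries had 16.4% and 17.9% in starved cells, against 19.4% and 18.6% in fed cells, so on all recovered reads the starved libraries of the 3 backgrounds lay below every fed library. The starved Thiamet-G library was the lowest of the 8. It also had 20.7% of its recovered reads on its 10 most read transcripts, against 8.19% in fed Thiamet-G cells, while the knockout pair had 6.5% in starved and 13.2% in fed cells. With those 10 transcripts left out of each library, the share of short coding regions was 17.1% in starved and 22.1% in fed knockout cells, and 14.7% in starved and 22.0% in fed Thiamet-G cells. The control libraries then had 22.1% and 18.2% in starved cells, against 24.8% and 20.1% in fed cells, so starved control replicate 1 was no longer below every fed library. For coding regions over 3000 nt the pairs went opposite ways, with 21.4% in starved and 23.6% in fed knockout cells, and 29.3% in starved and 18.1% in fed Thiamet-G cells. Without the 10 most read transcripts, both pairs were higher in starved cells, at 17.6% against 15.6% in knockout cells and 19.7% against 13.9% in Thiamet-G cells.

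**Figure D4:**
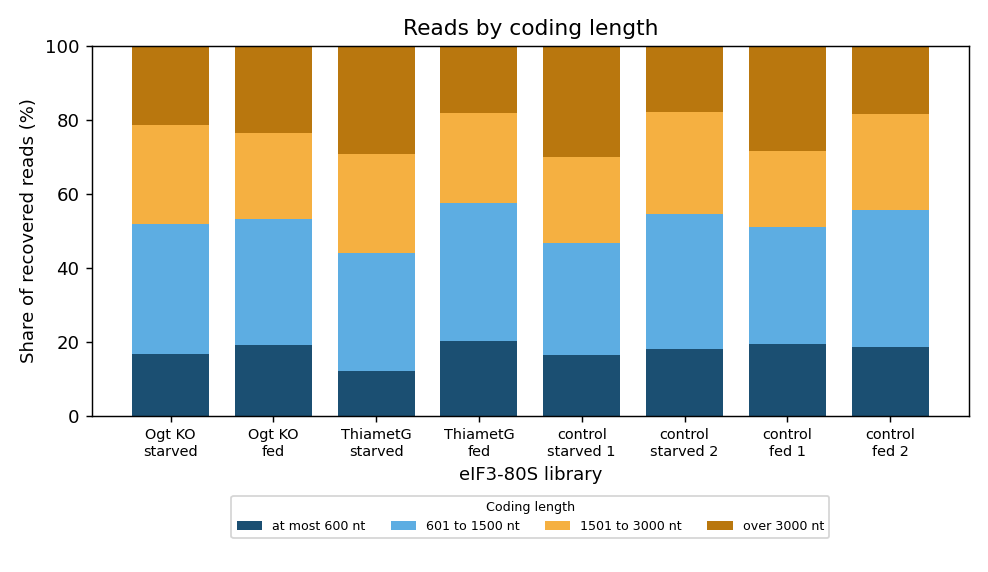
Share of recovered reads (percent, stacked to 100) by coding length class in the 8 eIF3-80S libraries, starved before fed within each background. Recovered reads were 67.4% to 96.7% of a library's total. The bottom segment, for coding lengths up to 600 nt, is 12.2% in starved and 20.2% in fed Thiamet-G cells, and lies between 16.4% and 17.9% in the other starved libraries and between 18.6% and 19.4% in the other fed libraries.

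Libraries that took no part in choosing the transcripts were then examined. Replicates of a group were set against each other in every combination of starved and fed library, because a shared replicate number is not stated to mark a shared culture. The combinations of a group reuse its libraries and are not independent of each other. In control eIF3-80S libraries the 100 transcripts lower in both pairs had medians between -1.42 and -1.05 over the 4 combinations, and 79.3% to 94.4% of those listed were below 0. With starved replicate 1, 58 of the 100 were listed, and with starved replicate 2, 89 or 91. The 73 transcripts higher in both had medians between 0.79 and 1.06, and 80.6% to 87.3% were above 0. Over all members of the same libraries the medians were -0.02 to 0.04. Control cells, with neither the knockout nor Thiamet-G, thus had the same direction for most of these transcripts.

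Ribo-seq of all ribosomes showed the same directions in control and Thiamet-G cells, less uniformly. In Thiamet-G cells the 100 had medians between -1.18 and -0.28 and the 73 had medians between 0.51 and 0.69. All members had medians of 0.01 to 0.12 there. Of those listed, 58.6% to 80.8% of the 100 were below 0 and 61.1% to 91.8% of the 73 above 0. In control cells the 73 had medians between 0.54 and 1.12. The 100 had medians of -1.29, -0.68 and -0.58, with an exception of 0.10 for starved replicate 1 against fed replicate 2. All members had medians of 0.30 and 0.31 with starved control replicate 1, and of -0.05 and 0.02 with starved control replicate 2. Of those listed, 47.5% to 87.9% of the 100 were below 0 and 68.5% to 86.3% of the 73 above 0. Ogt knockout cells differed by replicate. With replicate 1 starved and fed, the 100 had a median of -0.61 and the 73 of 0.65, but with replicate 2 starved and fed, the medians were 0.36 and -0.27, the opposite order. The mixed combinations lay between, at 0.02 and 0.48 for starved replicate 1 over fed replicate 2, and at -0.40 and 0.01 for starved replicate 2 over fed replicate 1. The libraries labelled knockout Ribo-seq replicate 2 thus had the opposite order to the eIF3-80S pair of the same background, and whether their starved and fed labels are exchanged could not be checked.

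**Figure D5:**
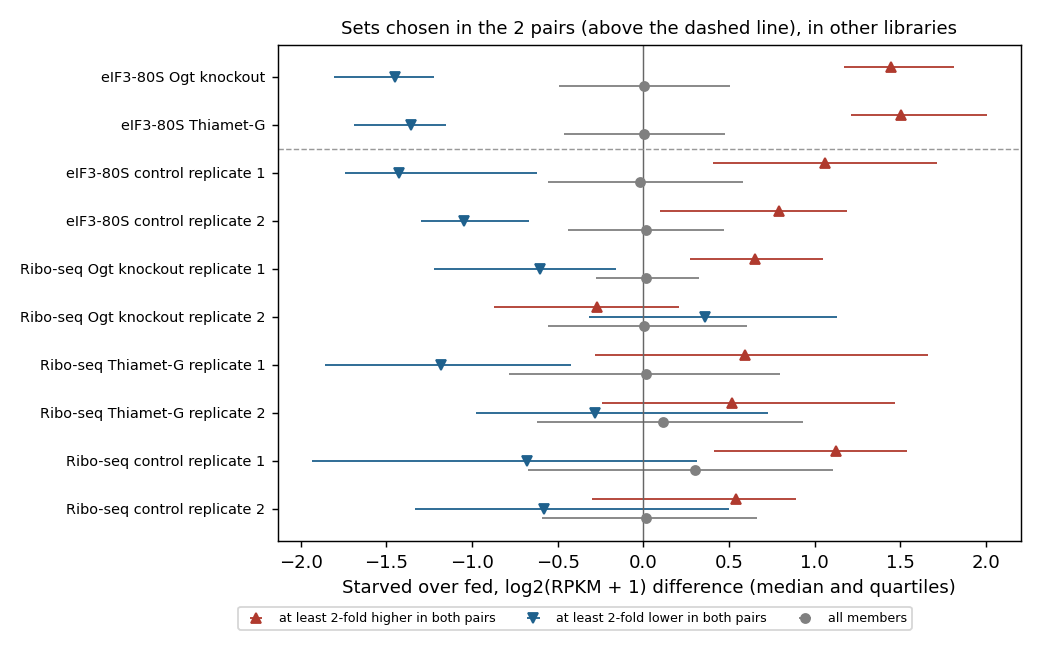
Median and quartiles over transcripts of the starved-over-fed difference of log2(RPKM + 1) for the 73 transcripts at least 2-fold higher in both pairs, the 100 at least 2-fold lower in both, and all 3718, with the selecting pairs above the dashed line and same-numbered replicates of other groups below it. In control eIF3-80S libraries the lower set sits at -1.42 and -1.05 and the higher set at 1.06 and 0.79, and Ribo-seq of Ogt knockout replicate 2 has the opposite order under its labels.

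Whether either background changed the starvation ratio was tested in the fit of 6 groups over the 1679 transcripts listed in all 8 eIF3-80S files, in which the spread came from the 2 control groups alone. No adjusted call was made in any contrast, with 0 of 1679 (0.0%) by limma and by limma-voom. For starvation within the knockout pair 117 transcripts (6.97%) had an unadjusted p under 0.05 with limma and 163 (9.71%) with limma-voom, and within the Thiamet-G pair 125 (7.45%) and 178 (10.6%) did. For the difference between the 2 pairs the counts were 35 (2.08%) and 50 (2.98%). For the knockout ratio against the control ratio they were 33 (1.97%) and 35 (2.08%), and for the Thiamet-G ratio against the control ratio 43 (2.56%) and 44 (2.62%). The last 2 contrasts share the control libraries. The fit had 2 residual degrees of freedom, and the size of difference that it could have called was not tested, so 0 calls do not show that the backgrounds respond alike.

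The 27 transcripts past 2-fold in opposite directions divided into 13 higher in starved knockout and lower in starved Thiamet-G cells, and 14 with the reverse pattern. Counting intervals excluded a ratio of 1 in both pairs for 8 of the 13 and 8 of the 14, sets chosen past 2-fold on the same reads. In control eIF3-80S replicate 1, the median log2 ratio was 0.31 for 6 listed members of the 13 and -0.67 for 4 listed members of the 14. In control replicate 2 it was 0.02 for 12 listed members of the 13 and -0.03 for 10 of the 14. The 2 backgrounds differed in opposite ways with and without starvation in these sets, which the same values had chosen. The 14 had a median log2 difference of knockout over Thiamet-G of -1.34 in starved cells and 1.48 in fed cells, and the 13 had 1.97 in starved cells and -0.78 in fed cells.

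Single libraries stood out among the most opposed transcripts. ENSMUST00000003183, with 1500 nt, had 2779.7 RPKM in starved Thiamet-G cells, against 94.5 RPKM in fed Thiamet-G cells, and 73.6 RPKM in starved knockout cells, against 82.3 RPKM in fed knockout cells. Only the starved Thiamet-G library was high, and the knockout ratio was within counting error. In control eIF3-80S libraries it had 74.4 and 395 RPKM starved, against 128 and 423 RPKM fed, and it lay between 42.4 and 94.6 RPKM in all 12 Ribo-seq libraries. Its difference between the pairs was -5.18 ± 1.54 (SE, log2) in the group fit, with a limma adjusted p of 0.999. ENSMUST00000090813, with 1455 nt, had 48.8 RPKM in starved knockout cells, against 152 RPKM in fed knockout cells, and 626 RPKM in starved Thiamet-G cells, against 71.2 RPKM in fed Thiamet-G cells. Its control libraries had 256 and 134 RPKM starved, against 1174 and 92.6 RPKM fed, a wider span among fed controls than within the knockout pair or the Thiamet-G pair.

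The pattern higher in starved knockout and lower in starved Thiamet-G cells was led by ENSMUST00000033058, with 5619 nt, and ENSMUST00000072383, with 1428 nt. ENSMUST00000033058 had 274 reads in starved knockout cells, against 39 in fed knockout cells, and 7 reads in starved Thiamet-G cells, against 234 in fed Thiamet-G cells. Its ratio was 4.26-fold in the knockout pair (95% counting interval 3.04 to 6.12), and it was 11.4-fold lower in starved Thiamet-G cells (5.45 to 28.7). ENSMUST00000072383 had 1896 RPKM in starved knockout cells, against 200.2 RPKM in fed knockout cells, and 89.5 RPKM in starved Thiamet-G cells, against 185 RPKM in fed Thiamet-G cells. Here the starved knockout library alone was high. Neither was listed in all 8 eIF3-80S files, so the group fit did not test them.

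Several of the extreme transcripts were far better represented in eIF3-80S libraries than in Ribo-seq. The mean rescaled level over the 4 libraries was over 8-fold above the mean Ribo-seq level for 37 of 3718 members, with each assay scaled on its own. The 37 had medians of 212 RPKM in eIF3-80S, against 6.95 RPKM in Ribo-seq, and a median coding length of 4920 nt. They held 7.8% of reads on listed transcripts in starved knockout cells, against 15.0% in fed knockout cells, and 19.8% in starved Thiamet-G cells, against 7.9% in fed Thiamet-G cells. Their log2 ratios had an SD of 1.79 in the knockout pair and 2.47 in the Thiamet-G pair, against 0.771 and 0.754 for the other 3681, although one high library raises both the mean level and this spread. Of the 37, 51.4% were past 2-fold in the knockout pair and 67.6% in the Thiamet-G pair, against 17.7% and 16.6% of the others. They included 7 of the 8 transcripts named here, ENSMUST00000072383 at 7.4-fold being the exception, and 9 of the 46 called over both pairs (3 of the 19 that rose and 6 of the 27 that fell). ENSMUST00000059250 lay between 6.1 and 109 RPKM in all 12 Ribo-seq libraries, far under its 6584 RPKM in fed knockout cells, and in control eIF3-80S it had 2236 RPKM in starved replicate 2 and was unlisted in starved replicate 1, against 2874 and 990 RPKM in fed cells. Both starved-over-fed directions therefore occurred among control libraries for a transcript that fell in both altered backgrounds. Without the 37, 68 transcripts were higher and 93 lower in both pairs, Pearson's r between the pairs was 0.349, and the share with the same sign was 60.3%, so the shared part of the pairs did not rest on them.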

How the data were processed

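Footprints of eIF3-bound 80S ribosomes from 4 libraries were analysed, with 4 control eIF3-80S and 12 Ribo-seq libraries for comparison. The authors deposited 1 table per library of transcript identifiers and RPKM. The tools include cutadapt and STAR, with the build GRCm38, per the submitters' processing notes. For the read counter, the annotation and the listing minimum, the sources used here give nothing. Groups came from the titles. The labels' replicate numbers of the starved Thiamet-G Ribo-seq libraries are opposite in titles and file names, and the titles were used.

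Whole reads, library totals and lengths were computed from ratios of RPKM values between libraries within a relative tolerance of 1e-06. Reads were recovered for 12249 of 15354 transcripts, and for 100% of the values in each of the 4 libraries. The length scale was set as the smallest at which most of a subset of lengths were multiples of 3. That 99.86% were multiples of 3 thus partly follows from this choice. They are called coding lengths on that assumption, which was not tested separately. The recovery and the fit were also run on simulated data. For the fit, both backgrounds were given the same levels and starvation changes, so it does not measure the error rate in these libraries. Each library was divided by its median ratio to the transcripts' geometric means, taken where every library of a fit listed them, and differences taken on log2(RPKM + 1), which understates changes of low transcripts. The threshold was 2-fold. Limma 3.58.1 in R 4.3.3 (lmFit, eBayes with a trend, two-sided, Benjamini-Hochberg adjusted p under 0.05) fitted starvation plus background over the 4 libraries, and 6 groups over all 8. Limma-voom on recovered reads was an alternative. Intervals are exact (95%) and cover counting error only. Fewer cells, less RNA per cell and a fall of all footprints together cannot be seen or told apart, since RPKM are relative to the library.

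The members, length classes and other steps were chosen with earlier results of these data known. Named transcripts were the 8 per direction with the largest smaller ratio among those past 2-fold in both pairs, and the 5 per opposite pattern with the largest difference, each with at least 20 reads in 1 library of each pair. Because 0 identifiers could be named, at most 2 per direction are printed and gene lists were left out.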

Additional observations from a re-analysis of the deposited data

Results flagged for a closer look

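In total, 27 transcripts were at least 2-fold in opposite directions in the knockout and Thiamet-G pairs, and as a count this difference was not tested. The log2 starvation ratio of the knockout pair minus that of the Thiamet-G pair was 5.45 for ENSMUST00000033058 and 4.28 for ENSMUST00000072383, which moved in opposite directions in the pairs and were not tested because some control file did not list them. It was -5.02 for ENSMUST00000003183 and -4.74 for ENSMUST00000090813, where limma's group fit tested the difference and gave an adjusted p of 0.999 for each, with log2 differences of -5.18 and -4.89 on the scale of all 8 libraries. No group held enough libraries for a search for outlying samples.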

How the results depend on the processing

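No paired analysis was possible because the eIF3-80S knockout and Thiamet-G groups have 1 library each and share fewer than 2 replicate numbers, so that the only pairing was by background, in the additive fit, and for the same reason no library could be left out within a pair. With a pseudocount of 10, 206 transcripts were higher in the Thiamet-G pair, 42 higher in both pairs and 14 in opposite directions. Restricting to 1679 transcripts listed in all 8 files gave 138 higher and 156 lower in the knockout pair, 157 and 131 in the Thiamet-G pair, 51 lower in both, a same-sign share of 64.6% and a Pearson's r of 0.461. At 50 reads or more on average, rescaled on those transcripts alone and chosen after seeing the data, 69 and 70 of 775 were higher and lower in the knockout pair, 82 and 78 in the Thiamet-G pair, 30 and 31 in both, with 71.6% of the same sign and r of 0.526. These counts are smaller because fewer transcripts were counted. Without rescaling the same-sign share was 57.8%. With unlisted transcripts at 0 over 7763 transcripts, 1996 were higher and 905 lower in the knockout pair, and 640 and 3168 in the Thiamet-G pair, the direction following the deeper library. The 46 calls of the additive limma fit became 222 with a pseudocount of 10, 18 after quantile normalization, 99 without rescaling, 176 with limma-voom and 0 in the group fit of 8 libraries, where ENSMUST00000182597 had a log2 change of 2.93 (adjusted p = 0.113). For that transcript, adjusted p ranged between 6.37e-07 and 0.0406 under the other alternatives. The cause was not tested. Quantile normalization turned the median of coding regions over 3000 nt in the Thiamet-G pair to -0.011. The group-fit contrasts stayed at 0 calls under every alternative run. Medians of gene lists were not run. Depth limits single transcripts, with a median of 13 reads in starved Thiamet-G cells.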

Other observations

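The 37 transcripts over 8-fold above their Ribo-seq level had a median log2 ratio of -0.42 in the knockout pair and 0.68 in the Thiamet-G pair. At the other end, 348 members were over 2-fold below their Ribo-seq level. These had a median coding length of 583.5 nt, with medians of 176 RPKM in eIF3-80S and 439 RPKM in Ribo-seq, and their median log2 ratio was 0.08 in the knockout pair and -0.23 in the Thiamet-G pair. The 2844 members within 2-fold of their Ribo-seq level had medians of 0.01 and -0.03 in the 2 pairs.

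Spearman's rho across members between an eIF3-80S pair and the same-numbered control eIF3-80S libraries was 0.421 for the knockout pair and 0.432 for the Thiamet-G pair in replicate 1 (1695 transcripts), and 0.386 and 0.357 in replicate 2 (3390 transcripts). Against Ribo-seq of knockout cells it was 0.399 and 0.363 in replicate 1 (3715 transcripts) and -0.188 and -0.133 in replicate 2 (3706 transcripts). Whether the starved and fed labels of that replicate 2 are exchanged could not be checked. Against Ribo-seq of Thiamet-G cells it was 0.256 for the knockout pair and 0.201 for the Thiamet-G pair in replicate 1, and 0.101 and 0.120 in replicate 2. Against Ribo-seq of control cells it was 0.260 and 0.241 in replicate 1, and 0.082 and 0.070 in replicate 2. Within each of these 8 comparisons the pairs were set against the same libraries.

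In the knockout pair, 1641 transcripts were listed only in starved cells and 406 only in fed cells. In the Thiamet-G pair, 77 were listed only in starved cells and 2876 only in fed cells. The more numerous group was in each case that of the deeper library. With at least 100 reads in the library that listed them, 5 were listed only in starved and 1 only in fed knockout cells, and 3 only in starved and 5 only in fed Thiamet-G cells.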
